A study of Mus musculus with 6 samples.

Results

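Bidirectional promoters are stretches of DNA from which a pair of genes on opposite strands is transcribed in opposite directions, and 789 of them were found between protein-coding genes of mouse chromosomes 1 to 19. A pair was taken when a minus-strand gene and a plus-strand gene began at most 1000 bp apart and pointed away from each other, with the transcription start site (TSS) set at the outermost gene end of the GENCODE annotation of NCBIM37 (mm9). The pairs held 1562 of 21418 protein-coding genes (7.29%), and 16 of those genes belonged to more than 1 pair. Each pair was described in a 10-kb region, 5 kb either side of the midpoint between its TSSs, by the sequencing reads of 6 libraries.

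The libraries came from chromatin of the hippocampus of C57/BL6 mice, 6 months old by the labels, and each group had 1 library of H4K5ac-ChIP (chromatin pulled down with an antibody to histone H4 acetylated at lysine 5), IgG-IP (a mock pull-down) and input (genomic DNA without a pull-down). Fear-conditioned mice (FC) received foot shocks in a context, and control mice (CON) saw the context without a shock. Tissue was taken 1 h after the memory test, so both groups had been put back into the context. The methods name several hippocampal samples per group and mention pooling of libraries after gel purification. They do not say whether a library counted here is a pool of the samples of its group. No group had replicate libraries, so no test across samples was possible, and the intervals given for ratios of reads are exact binomial intervals at 95% that cover counting error only. In whole hippocampus, fewer cells of a type and less acetylation per cell cannot be told apart.

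Divergent pairs of this kind are typical of genes needed in every cell, such as those for DNA repair, mitochondrial proteins, chaperones and histones. Their shared promoter is commonly a CpG island, a GC-rich stretch with many unmethylated CG dinucleotides, which usually lacks a TATA box and binds general activators such as SP1, NF-Y and ETS factors. RNA polymerase starts in both directions from the edges of a nucleosome-depleted stretch, and acetylated nucleosomes stand on both sides of it. H4K5ac is a mark of open chromatin that is found around the starts of active genes.

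The DNA between the TSSs is shown for 4 pairs known from textbooks. It is also shown for 6 pairs from both ends of the range of H4K5ac over input, to be read side by side. The sequences were read from NCBIM37 (mm9) on the plus strand, from the base after the minus-strand TSS to the base before the plus-strand TSS, and none of them overlapped another annotated gene. Capitals mark matches, on either strand, to the GC box GGGCGG (SP1), the CCAAT box (NF-Y), the ETS motif CCGGAAG and the CRE motif TGACGTCA. The textbook pairs were Brca1/Nbr1 (chr11:101413270-101413462), Ndufaf2/Ercc8 (chr13:108948820-108948924), Mrps12/Sars2 (chr7:29526840-29527009) and Col4a4/Col4a3 (chr1:82583425-82583495).
Brca1/Nbr1: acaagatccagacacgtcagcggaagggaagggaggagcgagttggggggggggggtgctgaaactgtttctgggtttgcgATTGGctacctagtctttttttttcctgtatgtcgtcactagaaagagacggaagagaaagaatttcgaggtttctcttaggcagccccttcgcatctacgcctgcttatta
Ndufaf2/Ercc8: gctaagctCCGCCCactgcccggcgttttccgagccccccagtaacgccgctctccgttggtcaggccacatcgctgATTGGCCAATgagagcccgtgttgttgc
Mrps12/Sars2: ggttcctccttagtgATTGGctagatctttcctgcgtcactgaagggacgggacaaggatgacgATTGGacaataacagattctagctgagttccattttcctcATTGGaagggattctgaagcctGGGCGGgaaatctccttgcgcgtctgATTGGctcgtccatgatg
Col4a4/Col4a3: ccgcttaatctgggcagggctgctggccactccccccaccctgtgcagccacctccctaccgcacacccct
Among the pairs with most H4K5ac over input were Clmn/4930408O17Rik (chr12:106103287-106103539), Mfsd8/3110057O12Rik (chr3:40650808-40650891), Gtf2e1/Rabl3 (chr16:37539876-37539970) and Vmp1/Ptrh2 (chr11:86497339-86497486). Among those with least were Gm17649/Hoxc13 (chr15:102751252-102751533) and Plcz1/Capza3 (chr6:139989979-139990045).
Clmn/4930408O17Rik: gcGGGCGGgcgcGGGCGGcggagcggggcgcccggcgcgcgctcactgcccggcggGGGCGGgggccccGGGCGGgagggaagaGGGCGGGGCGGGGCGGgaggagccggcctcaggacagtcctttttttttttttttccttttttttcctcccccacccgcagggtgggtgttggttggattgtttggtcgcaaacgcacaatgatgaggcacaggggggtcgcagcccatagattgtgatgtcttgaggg
Mfsd8/3110057O12Rik: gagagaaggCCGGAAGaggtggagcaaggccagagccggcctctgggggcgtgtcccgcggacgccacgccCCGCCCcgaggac
Gtf2e1/Rabl3: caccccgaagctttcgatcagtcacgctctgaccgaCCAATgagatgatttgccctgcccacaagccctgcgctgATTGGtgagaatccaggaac
Vmp1/Ptrh2: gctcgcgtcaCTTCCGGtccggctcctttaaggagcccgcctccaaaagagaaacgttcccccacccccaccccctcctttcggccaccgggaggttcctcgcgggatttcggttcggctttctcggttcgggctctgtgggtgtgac
Gm17649/Hoxc13: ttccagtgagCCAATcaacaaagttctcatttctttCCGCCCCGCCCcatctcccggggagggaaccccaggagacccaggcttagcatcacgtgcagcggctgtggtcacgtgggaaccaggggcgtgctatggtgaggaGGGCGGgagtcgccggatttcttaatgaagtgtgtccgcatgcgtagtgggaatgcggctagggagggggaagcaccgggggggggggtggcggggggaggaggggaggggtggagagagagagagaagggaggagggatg
Plcz1/Capza3: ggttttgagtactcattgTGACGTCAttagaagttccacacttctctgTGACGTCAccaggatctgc
The stretch of Clmn/4930408O17Rik held 68.0% G and C in 253 bp, with a run of GC boxes. That of Gtf2e1/Rabl3 held 55.8% in 95 bp, with a CCAAT box on each strand. That of Plcz1/Capza3 held 46.3% in 67 bp, and its 2 CG dinucleotides both lay in CRE motifs. That of Gm17649/Hoxc13, the lowest pair, held 63.5% in 282 bp, with 3 GC boxes and a CCAAT box. That of Col4a4/Col4a3, also below input, held 69.0% in 71 bp and none of these motifs.

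Within the limit of the rule, the median distance between the TSSs was 141 bp and the quartiles were 73 and 271 bp. There were 292 pairs at up to 100 bp, 219 above 100 and up to 200 bp, 169 above 200 and up to 400 bp and 109 above 400 bp. The widest pairs within the limit, Pdzd7/Sfxn3 and Btf3l4/Txndc12, both lay at 987 bp, and the nearest pair beyond it, Nacc1/Trmt1, at 1004 bp. The log2 H4K5ac over input was 0.63 in FC and 1.07 in CON at Pdzd7/Sfxn3, 1.10 and 1.06 at Btf3l4/Txndc12, and 0.53 and 1.15 at Nacc1/Trmt1. Over the 5 pairs nearest to the limit on each side it ran from 0.44 to 1.10 inside and from 0.23 to 0.53 outside in FC, and from 0.46 to 1.11 and from 0.07 to 1.15 in CON.

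Their promoters were rich in G and C. In the 300 bp from 250 bp before to 50 bp after a TSS, the median GC content was 62.7% for the 1562 genes of the pairs and 53.7% for 12341 single promoters, which were protein-coding TSSs with no other annotated gene within 5 kb. The ratio of observed to expected CG dinucleotides had a median of 0.852 in the pairs and 0.447 in the single promoters. A CpG-rich TSS, here a GC content of at least 55% with a CG ratio of at least 0.6 in the 300 bp around it, was found for 78.1% of the genes of the pairs, 41.5% of the single promoters and 46.3% of all 21418 protein-coding genes. The 5116 CpG-rich single promoters therefore serve as the closer comparison, a choice made after the first values were seen.

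Motif matches also differed from those of single promoters. The ETS motif CCGGAAG was found, on either strand, at 28.2% of the TSSs of the pairs, 14.8% of the CpG-rich single promoters, 8.03% of the single promoters and 10.9% of all protein-coding genes. For AAGATGGC, the motif of YY1, the shares in the same order were 8.13%, 3.91%, 2.78% and 3.31%, and for GCATGCGC, the core of the NRF1 motif, 6.98%, 5.82%, 2.80% and 3.35%. The CCAAT box was found at 42.4% of the TSSs of the pairs and 34.7% of the CpG-rich single promoters, with 38% of all protein-coding genes. The GC box went the other way against CpG-rich single promoters, with 68.2% against 76.3%, where 43.7% of all protein-coding genes had one. The TATA box TATAAA was found at 4.48% of the TSSs of the pairs, 5.22% of the CpG-rich single promoters, 15.8% of the single promoters and 13.5% of all protein-coding genes. The CRE motif TGACGTCA was found at 4.29% of the TSSs of the pairs, 4.16% of the CpG-rich single promoters and 2.31% of all protein-coding genes, and ACTACAATT, part of the ZNF143 motif, at 0.768%, 0.508% and 0.490%. None of these motifs contains another. The windows of a pair overlap when its TSSs are close, so a single match can count for both genes.

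Single libraries gave 11516839 to 38243819 distinct 5′ positions on these chromosomes, fewest in the FC IgG-IP and most in the FC input. A typical pair region held a median of 186 reads of H4K5ac in FC and 210 in CON, 199 and 129 of input, and 44 and 55 of IgG-IP. As a check of the tissue, H4K5ac exceeded input at 8 of 9 promoters of hippocampal neuron genes in FC and 7 of 9 in CON, against 4 of 8 in each group for genes of liver, muscle and pancreas. The ranges of both lists overlapped, and 38.1% of all protein-coding TSS regions in FC and 31.5% in CON were below input.

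H4K5ac stood above input at most bidirectional promoters. The median log2 H4K5ac over input was 0.44 in FC, which is 1.36-fold, and 0.63 in CON, which is 1.55-fold. The quartiles were 0.25 and 0.69 in FC and 0.43 and 0.85 in CON. Single promoters had medians of 0.05 and 0.25 with a much wider spread, from -0.73 to 0.53 between the quartiles in FC and from -0.73 to 0.71 in CON. CpG-rich single promoters had medians of 0.46 and 0.64, almost those of the pairs, and quartiles of 0.14 and 0.71 in FC and of 0.35 and 0.88 in CON. Against IgG-IP the pairs had medians of 0.87 in FC and 0.76 in CON. Within 2 kb of the midpoint or TSS the pairs were lower over input than the CpG-rich single promoters. Their medians were 0.62 against 0.69 in FC and 0.80 against 0.88 in CON.

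Relative to single promoters in the same 1% step of GC content, the median pair was higher by 0.23 on the log2 scale in FC and by 0.21 in CON. In FC 77.7% of the pairs exceeded the median of their step, and in CON 74.3% did, where 69.9% and 67.7% of the CpG-rich single promoters and 56.6% of all protein-coding TSS regions in each group did. When the CpG-rich single promoters alone gave the medians of the steps, the difference was -0.02 in FC and -0.00063 in CON. Pairs of a protein-coding with another annotated gene, 494 in number, had medians of 0.44 and 0.66 in FC and CON, and 388 divergent protein-coding pairs more than 1000 and up to 5000 bp apart had medians of 0.45 and 0.74.

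**Figure D1:**
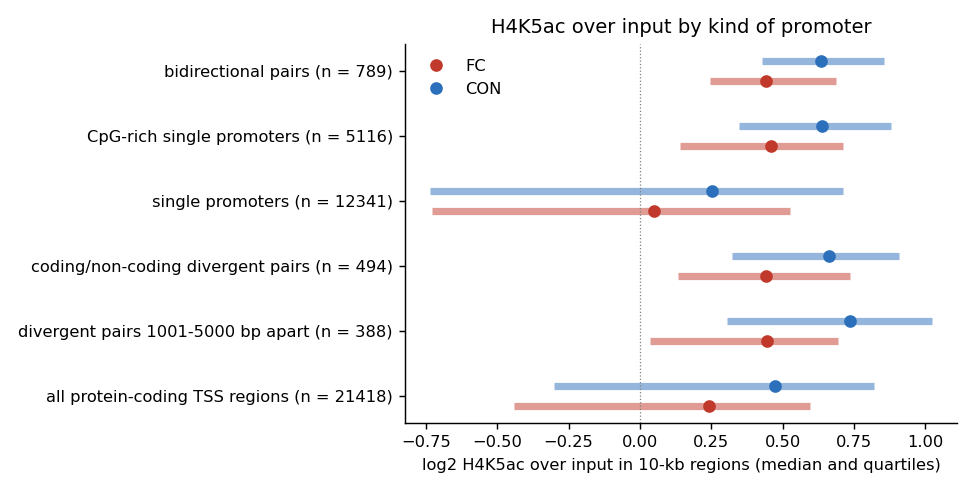
Median (points) and quartiles (bars) of log2 H4K5ac over input in 10-kb regions for 6 kinds of promoter, in FC and in CON, 1 library each. The medians of the bidirectional pairs, 0.44 and 0.63, lie beside those of the CpG-rich single promoters, 0.46 and 0.64, and their bars are shorter than those of the other kinds.

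H4K5ac reached 1.5 times the input at 276 of 789 pairs (35.0%) in FC and 431 (54.6%) in CON, where 25.4% and 41.9% of all protein-coding TSS regions did. Among CpG-rich single promoters the shares were 37.2% and 56.0%. Taken pair by pair, H4K5ac exceeded input in both groups beyond counting error at 501 of the 782 pairs with at least 50 input reads in each library (64.1%) and was below it in both at 10 (1.28%). By the same rule 60.1% and 4.69% of the CpG-rich single promoters and 44.5% and 19.5% of all protein-coding TSS regions were called. H4K5ac was below input at 9.13% of the pairs in FC and 4.69% in CON, against 18.2% and 11.7% of the CpG-rich single promoters and 47.8% and 41.3% of all single promoters.

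The 590 CpG-rich pairs and the 199 others, classed by the 300 bp around the midpoint, had medians of 0.45 and 0.41 in FC and of 0.63 and 0.64 in CON. Of the CpG-rich pairs 7.29% were below input in FC and 3.39% in CON, and of the others 14.6% and 8.54%. Single promoters that were not CpG-rich, 7225 in number, had medians of -0.48 and -0.40. They were classed at the TSS, whereas the midpoint of a wide pair lies between its TSSs. A pair with CpG-rich TSSs can thus be among the others, and the 2 kinds of class are not alike. Over the 4 distance classes the medians lay between 0.40 and 0.47 in FC and between 0.63 and 0.69 in CON. For the ETS motif 5.86% of 256 pairs with it at either TSS were below input in FC and 1.95% in CON, and 10.7% and 6.00% of 533 pairs without it. In FC the share was also lower with than without the YY1 motif, 4.82% against 9.63%, and the GC box, 8.39% against 11.6%. In CON both were lower too, at 2.41% against 4.96% and 3.95% against 7.18%. With the NRF1 motif the share was higher in FC, 10.9% against 8.97%, but lower in CON, 1.56% against 4.97%. The CCAAT box changed direction as well, with 8.35% against 9.90% in FC and 5.32% against 4.06% in CON. With the CRE motif the share was 10.8% against 9.04% in FC and 8.11% against 4.52% in CON. With the TATA box it was 12.2% against 8.92% and 10.2% against 4.32%. These shares rest on few pairs. Of 83, 64, 37 and 49 pairs with the YY1, NRF1, CRE and TATA motifs, 4, 7, 4 and 6 were below input in FC. In CON 2, 1, 3 and 5 were. The medians with and without the ETS motif were 0.44 and 0.43 in FC and 0.62 and 0.64 in CON, and no test was made.

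Of 782 pairs with at least 50 input reads in each library, 23 (2.94%) were below input in both groups, against 10.1% of the CpG-rich single promoters and 28.2% of all protein-coding TSS regions. Hoxc13, a homeobox gene of hair and nail, Hmx1, a homeobox gene of the developing eye and ear, Smyd1, a methyltransferase of heart and skeletal muscle, and Plcz1, which activates the egg from the sperm, were among the 5 lowest. Further up the same list stood Col4a4/Col4a3, collagens of the kidney's basement membrane, Duox2/Duoxa2, which make hydrogen peroxide in the thyroid, and Bhmt2/Dmgdh, enzymes of choline metabolism in the liver. Genes of germ cells were Smc1b and Stag3, which are meiotic cohesin subunits, and Hist1h2ba/Hist1h2aa, the testis variants of histones H2B and H2A. Sgce/Peg10, an imprinted pair that is expressed from the paternal copy, lay at -0.04 in FC and -0.21 in CON. The list also held Nr2e1, a nuclear receptor of neural stem cells, Gpc2, a glypican of developing neurons that is paired with Stag3, Pecam1, an adhesion molecule of endothelium, and Pole, the catalytic subunit of DNA polymerase epsilon. No list was tested here, and the genes beyond the 5 lowest were named after their values were seen.

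The lowest pair was Gm17649/Hoxc13, with 43 H4K5ac reads in FC and 39 in CON. Its density in RPKM (reads per kb, scaled to the depth of the library) was 0.163 in H4K5ac against 0.526 in input for FC, and 0.125 against 0.419 for CON. Its IgG-IP libraries held 54 and 59 reads, more than either H4K5ac library. The log2 H4K5ac over input was -1.69 (interval -2.20 to -1.21) in FC and -1.74 (-2.30 to -1.21) in CON. E130018O15Rik/Hmx1 held 60 and 47 H4K5ac reads in FC and CON and 242 and 130 input reads, with log2 ratios of -1.48 and -1.55. Smyd1/Cd8b1, whose plus-strand gene is a co-receptor chain of cytotoxic T cells, held 73 and 80 H4K5ac reads, with ratios of -1.34 and -0.87. Plcz1/Capza3, both genes of the sperm head, held 79 and 84, with ratios of -0.87 and -0.91. Gml/Hemt1 was thinly covered, at 20 and 31 H4K5ac reads against 97 and 51 of input, and its ratios of -1.74 and -0.80 had wide intervals, -2.52 to -1.04 and -1.49 to -0.13. The 5 pairs were picked as the lowest, so their intervals are a description only.

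The highest pair was Clmn/4930408O17Rik, where Clmn encodes calmin, an actin-binding membrane protein. It held 433 H4K5ac reads in FC and 408 in CON, 249 and 130 of input, and 48 and 57 of IgG-IP. In FC its log2 ratio to input was 1.33 (1.10 to 1.56), and in CON 1.57 (1.28 to 1.86). Mfsd8/3110057O12Rik, with a lysosomal membrane transporter, had 126 and 182 H4K5ac reads over 80 and 64 of input, ratios of 1.19 and 1.43. Its H4K5ac reads lay below the medians of all pairs, 186 in FC and 210 in CON. Its input reads lay below the medians of 199 and 129. Gtf2e1/Rabl3, with a subunit of the general transcription factor TFIIE, had 288 and 338 over 159 and 138, ratios of 1.39 and 1.21. For 5031425E22Rik/Mll5 the counts were 215 and 252 over 106 and 117, and the ratios 1.55 and 1.03. Mll5 belongs to the MLL family of chromatin proteins. Vmp1/Ptrh2, which pairs an autophagy protein of the endoplasmic reticulum with a mitochondrial hydrolase, had 267 and 322 over 141 and 146, ratios of 1.45 and 1.06. These 5 pairs were likewise picked as the highest.

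Of 18 pairs listed as textbook cases, 9 were members, 8 had 5′ ends that overlapped in the annotation and so fell outside the rule, and 1 was found in neither form. Of the 9 members 8 are described. Atm/Npat, which joins the kinase that senses DNA double-strand breaks to an activator of histone genes, held 159 and 177 H4K5ac reads in FC and CON against 142 and 105 of input, a log2 ratio of 0.70 and 0.67. Wrn/Purg, with the helicase mutated in Werner syndrome, had ratios of 0.91 and 0.70. Brca1/Nbr1, with the breast cancer susceptibility gene for homologous repair, held 166 and 195 over 187 and 130, ratios of 0.36 (0.05 to 0.67) and 0.50 (0.18 to 0.83). Mcm4/Prkdc, a replicative helicase subunit beside the catalytic subunit of DNA-dependent protein kinase, had ratios of 0.17 (-0.16 to 0.50) and 0.23 (-0.12 to 0.59), and both intervals included 0.

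Pdcd10/Serpini1, the latter encoding neuroserpin of neurons, had 144 and 191 H4K5ac reads in FC and CON over 119 and 135 of input, with log2 ratios of 0.81 and 0.42. Ndufaf2/Ercc8, an assembly factor of respiratory complex I beside a factor of transcription-coupled repair, had ratios of 0.50 and 0.48. Mrps12/Sars2, for a mitochondrial ribosomal protein and the mitochondrial seryl-tRNA synthetase, had 241 and 275 H4K5ac reads but 275 and 125 of input, so that its ratios were 0.34 and 1.06 while its H4K5ac densities differed by 0.04 on the log2 scale. Of the 8 pairs described, Col4a4/Col4a3 alone was below input, with 68 and 88 over 186 and 126, ratios of -0.92 and -0.60.

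**Figure D2:**
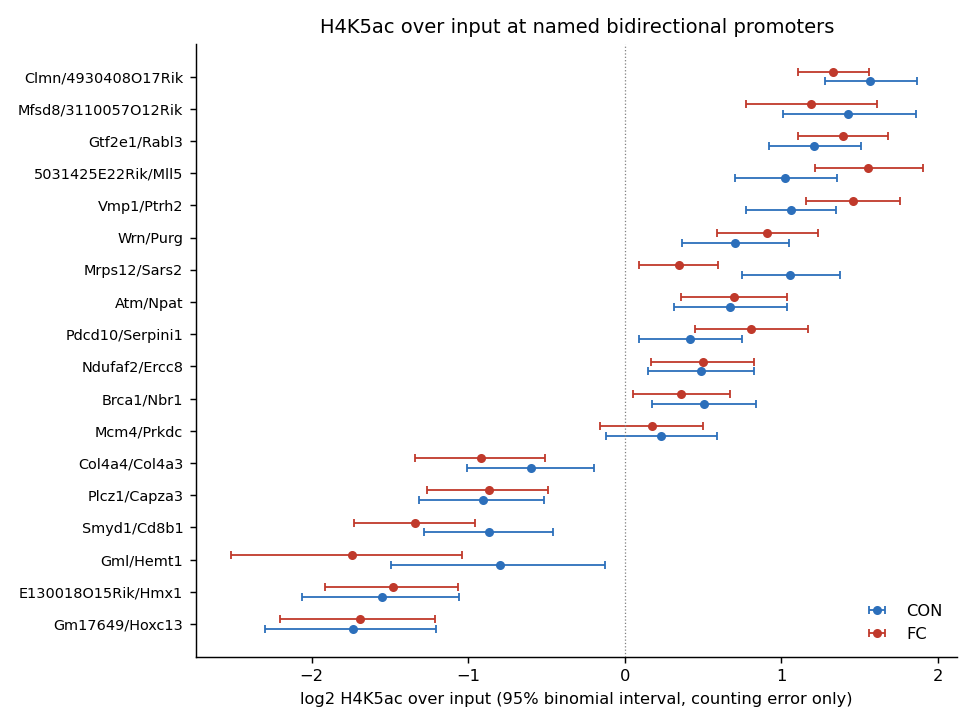
Log2 H4K5ac over input in 10-kb regions of 8 textbook pairs and of the 5 highest and 5 lowest pairs, in FC and CON. Bars are exact binomial intervals for counting error of 1 library each. Col4a4/Col4a3 belongs with the low pairs, and Mcm4/Prkdc is the only one of these pairs whose intervals reach 0.

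The share of genes in a pair varied among gene families, and no enrichment test was made. Of 67 replication-dependent histone genes 40.3% were in a pair, of 121 genes of DNA repair and replication 27.3%, of 189 mitochondrial genes 21.2% and of 85 chaperone genes 18.8%, where 7.29% of all protein-coding genes were. Proteasome genes followed with 11.8% and ribosomal protein genes with 6.94%. Zinc finger genes named Zfp had 5.48%, and of 297 genes of synapse and excitability 1.01% were in a pair. The lists went by symbol, so they took in a few genes of other function, among them Poldip2, Cox4nb, Rps6kb1 and Col4a3bp.

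All 15 chaperone pairs exceeded input in both groups, as did most pairs, 704 of 782. Of all protein-coding TSS regions 38.1% in FC and 31.5% in CON were below input. The chaperone pairs had medians of 0.58 in FC and 0.79 in CON, and all chaperone genes, in pairs or not, 0.55 and 0.70. The pairs included Hspb2/Cryab, a pair of small heat shock proteins, at 1.07 and 0.94, and Hsp90b1/BC030307, with the chaperone of the endoplasmic reticulum, at 0.80 and 0.99. Hspa14/Cdnf is counted in them under 2 gene models, and Hspa1a/Hspa1l, where Hspa1a has a near-identical copy, is among them. The 39 mitochondrial pairs had medians of 0.49 and 0.64, and 1 of them, Timm23/Parg, was below input in 1 library, at -0.02 in CON against 0.46 in FC. Mrps21/C920021L13Rik stood at their upper end with 1.15 and 1.07, and Mrpl32/Psma2, a mitochondrial ribosomal protein beside a proteasome subunit, near the lower with 0.06 and 0.12.

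The 32 pairs with a gene of DNA repair or replication had medians of 0.38 in FC and 0.61 in CON. Neil1/Gm16493, with a DNA glycosylase, was highest by the mean of both groups at 0.79 and 1.35, and Pxmp2/Pole, with the catalytic subunit of DNA polymerase epsilon, lowest at -0.07 and -0.55. Tsc2/Nthl1, which joins a regulator of mTOR signalling to a glycosylase, held 305 and 336 H4K5ac reads and had ratios of 0.55 and 1.02. The 10 ribosomal protein pairs had medians of 0.26 and 0.53, and 0 of them reached 1.5-fold in FC and 4 in CON, where 35.0% and 54.6% of all pairs did. All ribosomal protein genes, in pairs or not, had medians of 0.29 and 0.59. The 3 pairs with a gene of synapse or excitability were Nlgn2/1810027O10Rik, with neuroligin 2 of inhibitory synapses, at 0.63 and 0.87, Gabrg3/Gm9962, with a GABA receptor subunit, at 0.43 and 0.64, and Ntrk3/Gm9885, with the receptor for neurotrophin 3, at -0.14 and 0.85.

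Histone pairs ranged widely. Of 14 pairs, 13 joined a pair of histone genes, mostly an H2A to an H2B gene, and the medians were 0.51 in FC and 0.44 in CON. Hist2h2ac/Hist2h2be had the highest mean of both groups, at 0.93 and 0.97, from 246 and 278 H4K5ac reads. The testis pair Hist1h2ba/Hist1h2aa was at -0.55 and -0.64, from 81 and 89. Hist1h2bq/Hist1h2ao could hardly be read, with 3 and 5 H4K5ac reads over 10 and 2 of input, and Hist1h2ap/Hist1h2br had 34 and 43 over 52 and 42. Histone genes are near-identical copies of each other, so the counts of these pairs are uncertain.

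Altogether 7 pairs had fewer than 50 input reads in a library. Besides these 2 histone pairs they were pairs of predicted or multicopy genes. Tcte3/2210404J11Rik had 0 reads in all 6 libraries, input included, so its H4K5ac was not measured. These pairs stay in the counts out of 789, are left out of those out of 782 and were not ranked.

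Around the midpoint, H4K5ac formed a summit on each side of a central dip. In FC the mean density rose from 0.639 RPKM at 3 to 5 kb to summits of 0.959 at 675 bp on the side of the minus-strand gene and 0.925 at 625 bp on the side of the plus-strand gene, with 0.616 near the midpoint. In CON the summits were 0.859 at 775 bp and 0.838 at 1075 bp, the low point 0.464 and the outer density 0.647. Between 300 and 1500 bp downstream of the TSSs the density was 1.32 times the outer one in FC and 1.22 times in CON, while input stayed at 1.00 and 0.969 times and IgG-IP at 0.951 and 0.947 times. At CpG-rich single promoters the H4K5ac ratio, over both sides of the TSS, was 1.43 and 1.33. At all protein-coding TSS regions it was 1.29 and 1.23.

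The central dip was present in every library. The density within 150 bp of the midpoint, relative to the flanks, was 0.749 in FC H4K5ac and 0.601 in CON H4K5ac. In input it was 0.824 and 0.604, and in IgG-IP 0.570 and 0.540. Relative to input, the centre over flank ratio was thus 0.909 in FC and 0.995 in CON, and in FC the interval of H4K5ac (log2 -0.46 to -0.37) lay below that of input (-0.33 to -0.23), while in CON the interval of H4K5ac (-0.78 to -0.68) lay within that of input (-0.80 to -0.66). Per position the centre held 1.46 times the input density in FC and 1.80 times in CON, the flanks 1.61 and 1.81 times, and the outer region 1.22 and 1.43 times. CpG-rich single promoters had deeper dips, at 0.528 and 0.379 in H4K5ac and 0.525 and 0.410 in input. Relative to input their ratio was 1.01 in FC and 0.924 in CON. They were chosen by the base composition of the same 300 bp, and their centre is a TSS. All single promoters had shallower H4K5ac dips than the pairs, at 0.770 and 0.643, with 0.872 and 0.738 in input.

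**Figure D3:**
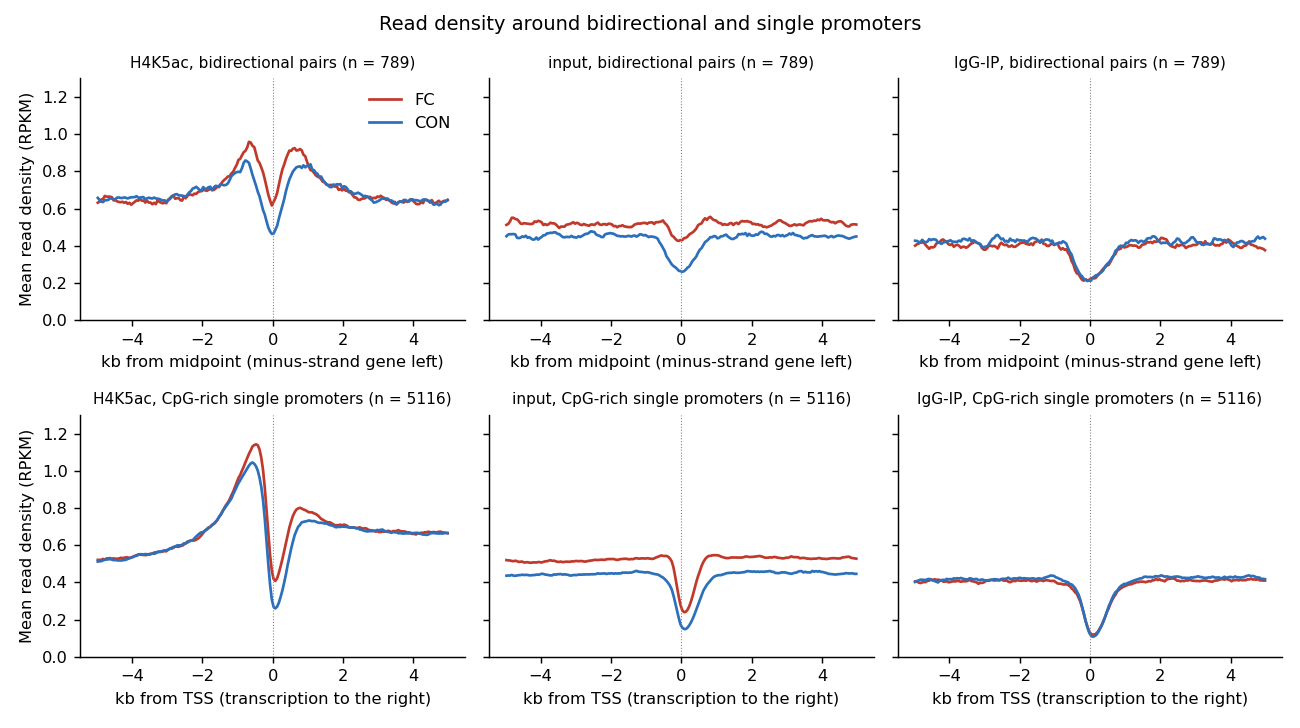
Mean read density (RPKM, bins of 50 bp smoothed over 5 bins) within 5 kb of the midpoint of 789 pairs (top) and of the TSS of 5116 CpG-rich single promoters (bottom), for H4K5ac, input and IgG-IP in FC and CON. The pairs, whose sides are both downstream of a TSS, have summits on both sides, single promoters a higher one upstream, and the dip at 0 is present in all 6 libraries.

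The dip differed with the distance between the TSSs. For pairs up to 100 bp apart the centre over flank ratio of H4K5ac was 0.711 in FC and 0.527 in CON, above 100 and up to 200 bp 0.670 and 0.519, and above 200 and up to 400 bp 0.736 and 0.594. For the 109 pairs more than 400 bp apart it was 1.03 and 1.01, with log2 intervals of -0.06 to 0.16 and -0.10 to 0.12. In that class the low points lay off the midpoint, on the side of the minus-strand gene. H4K5ac was 0.694 RPKM at 325 bp in FC and 0.520 at 425 bp in CON, against 0.860 and 0.752 next to the midpoint. Input at the same places was 0.473 and 0.275, against 0.506 and 0.357. Input over the same classes went from 0.773, 0.782 and 0.901 to 0.930 in FC and from 0.534, 0.535 and 0.679 to 0.835 in CON. In the widest class the H4K5ac ratio was 1.11 times that of input in FC and 1.2 times in CON, where in the other 3 classes it was 0.817 to 0.987 times. The fixed window of 300 bp around the midpoint holds both TSSs of pairs up to 300 bp apart and lies between the TSSs of wider pairs. The GC content of that window fell from a median of 64.7% in the narrowest class to 54.7% in the widest, and its part in the dip was not tested.

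**Figure D4:**
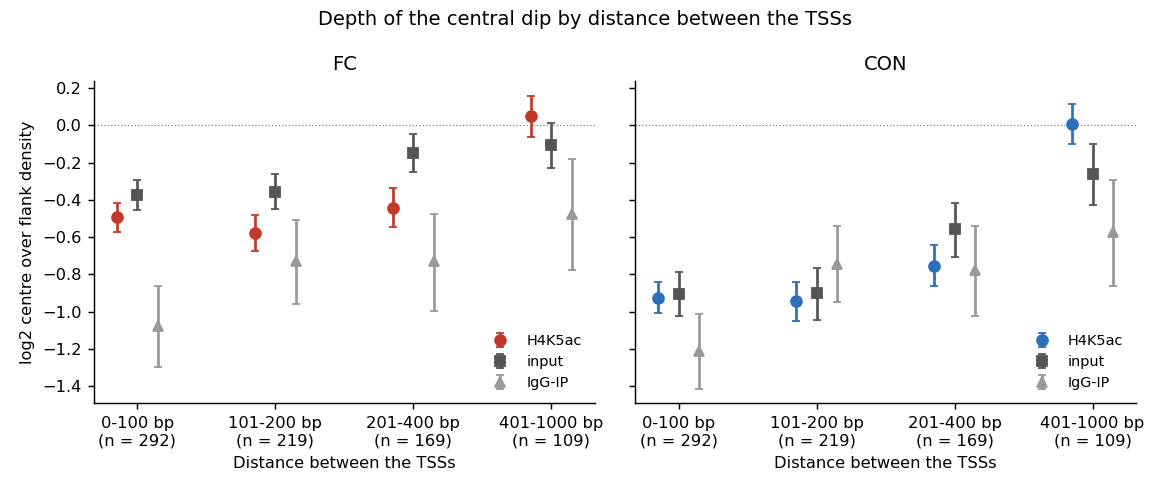
Log2 ratio of read density within 150 bp of the midpoint to the density 300 to 1500 bp downstream of the TSSs, by distance between the TSSs, for each library in FC (left) and CON (right). Bars are exact binomial intervals for counting error, and H4K5ac reaches 0 only in the class above 400 bp.

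The sides of a pair were taken as the stretches from 300 to 1500 bp downstream of each TSS. Strand order is arbitrary, so a mean ratio of the sides near 1 says nothing of the pairs, and it was 1.00 in FC and 1.03 in CON, plus-strand over minus-strand side. At CpG-rich single promoters the downstream side held 0.764 times the upstream density in FC and 0.718 times in CON, and at all single promoters 0.855 and 0.809 times. The controls were also lower downstream of CpG-rich single promoters, at 0.953 times in FC input, 0.875 times in CON input, 0.867 times in FC IgG-IP and 0.851 times in CON IgG-IP. In the pairs input was at 1.01 and 0.976 times in FC and CON and IgG-IP at 0.974 and 0.959 times.

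Within single pairs the sides could differ. Of 771 pairs with at least 20 H4K5ac reads on their sides in FC, the median absolute difference was 0.44 on the log2 scale, or 1.35-fold, and 56 pairs had at least 2-fold more on the plus-strand side and 60 on the minus-strand side. In CON the median was 0.46 over 772 pairs, and the counts were 69 and 62. At least 2-fold differences were found at 21.4% and 25.9% of the CpG-rich single promoters in FC and CON and at 18.3% and 20.2% of all protein-coding TSS regions. In FC input of the pairs the counts were 50 and 37 of 775, and in CON input 36 and 36 of 735. The input libraries, with medians of 24 and 16 reads per side, gave median differences of 0.39 in both groups, close to those of H4K5ac. The signed difference had a Spearman's rho of 0.661 between FC and CON over 769 pairs for H4K5ac and of 0.198 over 732 pairs for input. These and the other correlations across pairs are descriptions, since the pairs share their libraries and vary in base composition. Between H4K5ac reads on one side and on the other, rho was 0.184 for FC and 0.144 for CON. In input of the pairs it was 0.266 and -0.0679, and in H4K5ac of CpG-rich single promoters 0.319 and 0.328. Between the log2 ratio of the lengths of the genes and the difference between their sides, rho was -0.0775 for FC and -0.0672 for CON.

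Trip13/Brd9, a checkpoint ATPase beside a bromodomain subunit of the BAF complexes, had 9 and 51 H4K5ac reads on the Trip13 and Brd9 sides in FC and 8 and 56 in CON. Input had 11 and 31 in FC and 20 and 19 in CON, so the difference was in H4K5ac of both groups and in 1 input library. BC055324/2810422O20Rik had 13 and 40 reads in FC and 7 and 42 in CON, with input nearly level at 23 and 22 and at 14 and 13. In the other direction, 1110059G10Rik/Kif15, with a mitotic kinesin, had 48 and 9 in FC and 42 and 8 in CON. 4933406P04Rik/Bclaf1 had 62 and 12 in FC and 53 and 15 in CON. For I830134H01Rik/Cep55, with a protein of the midbody in cell division, the reads were 32 and 7 in FC and 39 and 9 in CON. Input reads of these 3 pairs, in the same order, were 19 and 14, 27 and 18, and 22 and 21 in FC, and 23 and 14, 26 and 13, and 18 and 28 in CON. All of these pairs were picked as the most uneven.

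Hspa1a/Hspa1l had the largest difference of all, with 1 and 32 reads in FC and 2 and 41 in CON. Its input was as uneven, with 1 and 34 reads in FC and 1 and 16 in CON, and Hspa1a has a near-identical copy, Hspa1b, so its value is uncertain. Of the textbook pairs, Brca1/Nbr1 had more H4K5ac on the side of Nbr1, an autophagy receptor, with 16 and 37 reads in FC and 17 and 34 in CON, while input had 23 and 28 in FC and 21 and 12 in CON. Atm/Npat was level, with 28 and 28 in FC and 33 and 29 in CON.

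**Figure D5:**
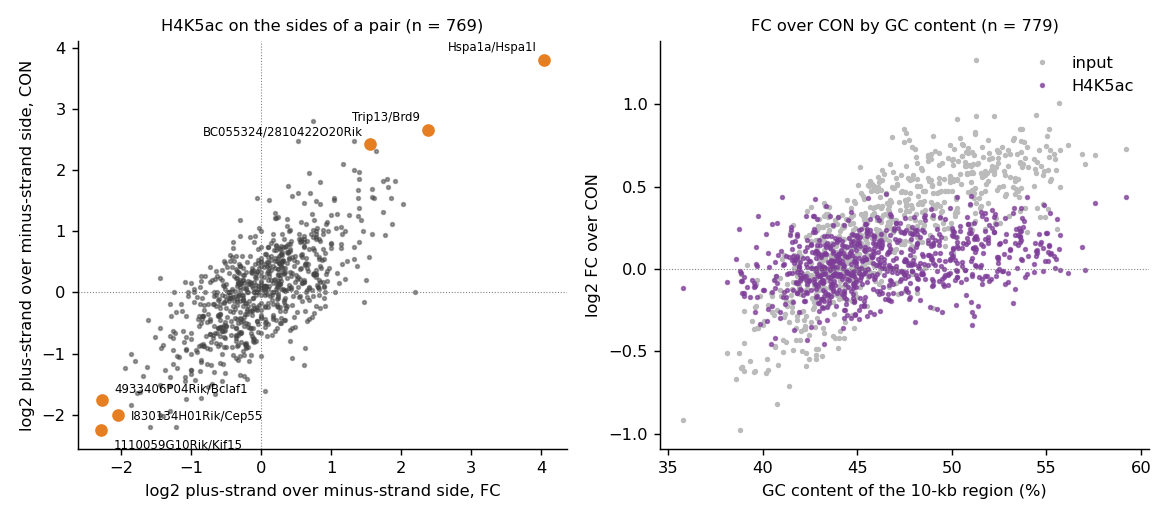
Left, log2 H4K5ac on the plus-strand over the minus-strand side of each of 769 pairs, in FC and in CON, with the 6 most uneven pairs named. Right, log2 FC over CON of H4K5ac and of input against the GC content of the 10-kb region for 779 pairs, in which input climbs with GC content and H4K5ac less so (rho 0.828 and 0.327 over 786 pairs).

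Fear conditioning was compared with the control by the ratio of the H4K5ac libraries. Each library was scaled to its own number of reads, so a change of H4K5ac shared by the whole genome would not show in this ratio. The median log2 FC over CON of H4K5ac was 0.04, with quartiles of -0.07 and 0.16, where all protein-coding TSS regions had a median of 0.06 and CpG-rich single promoters 0.05. H4K5ac was at least 1.5-fold higher in FC at 2 of 789 pairs and at least 1.5-fold higher in CON at 1 pair, where 3.06% and 1.27% of all protein-coding TSS regions were. Among CpG-rich single promoters the shares were 0.743% and 0.137%. The pairs called were low in reads. E130018O15Rik/Hmx1 had 60 reads in FC and 47 in CON, Gm11048/Defa3 had 4 and 1, and Gm3417/9030025P20Rik had 2 and 6. Among 779 pairs with at least 50 H4K5ac reads in both libraries, none reached 1.5-fold, and the log2 ratio ran from -0.46 to 0.45. The shares of other promoters given above were taken without that filter, so they cannot be set beside this count. Beyond counting error H4K5ac was higher in FC at 47 of the 779 pairs (6.03%) and lower at 10 (1.28%). With the same filter 8.38% and 1.77% of all protein-coding TSS regions were. The result depended on the region and on the control libraries. Within 2 kb of the midpoint the median was 0.12, with 22 pairs at least 1.5-fold higher in FC and 3 higher in CON, where 6.77% and 2.80% of all protein-coding TSS regions were. Less the input ratio the median turned to -0.18, with 13 pairs at least 1.5-fold higher in FC and 86 higher in CON, and less the IgG-IP ratio it was 0.12, with 67 and 18 pairs. The median of all protein-coding TSS regions moved alike, to -0.18 less the input ratio and to 0.11 less the IgG-IP ratio. The calls were less alike. With the input ratio taken off, 8.32% and 11.3% of these regions were called higher in FC and in CON, against 1.65% and 10.9% of the pairs. With the IgG-IP ratio taken off, the shares were 10.8% and 3.8% against 8.49% and 2.28%.

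The 3 pairs furthest up were Acyp1/Fam164c with 221 reads in FC and 190 in CON, a log2 ratio of 0.45 (0.17 to 0.74), Qpctl/Snrpd2 with 225 and 195, a ratio of 0.44 (0.16 to 0.73), and Utp15/Ankra2 with 174 and 151, a ratio of 0.44 (0.12 to 0.76). Snrpd2 is a core protein of spliceosomal snRNPs and Utp15 acts in ribosome assembly. The 3 furthest down were Hist1h2ag/Hist1h2bj with 114 and 184, a ratio of -0.46 (-0.81 to -0.11), Abce1/Anapc10 with densities of 0.382 and 0.524 RPKM, a ratio of -0.46 (-0.83 to -0.09), and 1200011I18Rik/Nufip1 with 123 and 195, a ratio of -0.43 (-0.77 to -0.10). Abce1 recycles ribosomes and Anapc10 is a subunit of the anaphase-promoting complex. These 6 pairs were picked as the most extreme of 779, so their intervals are a description only.

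The control libraries of the groups differed more than the H4K5ac libraries at these pairs. Input had a median log2 FC over CON of 0.23 with quartiles of -0.04 and 0.49, and IgG-IP one of -0.07. The input ratio climbed with the GC content of the region, with rho of 0.828 over 786 pairs, and the FC input itself was related to GC content (rho 0.814) where the CON input was not (rho -0.0444). The ratio of H4K5ac to input fell with GC content in FC (rho -0.349) and rose with it in CON (rho 0.322). The lower H4K5ac over input in FC than in CON, 0.44 against 0.63, moved with these input values, whose part in it was not tested, while the H4K5ac density itself had medians of 0.704 RPKM in FC and 0.675 in CON. Pairs kept their order in H4K5ac density between the groups, with rho of 0.874 over 789 pairs, but less so in the ratio to input, with 0.444.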

How the data were processed

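The authors sequenced SOLiD libraries of sonicated chromatin, aligned the reads to mm9 with Bioscope and deposited single aligned reads in BED format. The only value beside position and strand is a score, the mapping quality the authors deposited with each read, which ran from 4 to 100, and no normalization was applied. Files were mapped to groups by their labels.

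Reads were counted by 5′ end, with 1 read kept per position and strand on chromosomes 1 to 19, and densities (RPKM) are per kb and scaled to the number of such reads. H4K5ac, input and IgG-IP were compared as log2 ratios with Clopper-Pearson intervals, and no p-value was computed. For the profile, centre, flanks and sides, reads were shifted 75 bp towards the fragment centre. The difference between sides is the log2 ratio of reads + 1.

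Genes, TSSs and sequence came from GENCODE and NCBIM37, the build of the files. Single promoters in a step of GC content were used where a step held at least 20. Counting and ratios were tested on simulated data. Python 3.11.15, NumPy 2.4.6, pandas 2.3.3 and SciPy 1.17.1 were used, and figures were drawn with matplotlib 3.10.9.

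Named pairs were those of the textbook list (1 of its members is not reported here), the 5 highest and 5 lowest by mean log2 H4K5ac over input with at least 50 input reads per library, the 3 highest and 3 lowest by FC over CON with at least 50 H4K5ac reads per library, and the 3 most uneven in each direction with at least 20 reads on the sides. The pairs and all lists were chosen with earlier results of these data known. Alternatives were other read sets, regions, controls, distances, shifts and folds.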

Additional observations from a re-analysis of the deposited data

How the results depend on the processing

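The depth of a region, about 129 to 210 reads in the H4K5ac and input libraries, limits a single pair, and with 1 library per group nothing is known of the spread between animals. Adding head-to-head pairs with overlapping 5′ ends raised the number of pairs from 789 to 1186. The median log2 H4K5ac over input moved to 0.62 in FC and 0.80 in CON within 2 kb of the midpoint, to 0.87 and 0.76 against IgG-IP, and in CON to 0.66 with all deposited reads and to 0.67 with the overlapping pairs. The excess over single promoters of like GC content became 0.21 and 0.18 with single promoters that had no other gene within 2 kb, and -0.016 and -0.00063, a change of sign, with CpG-rich single promoters, which were added after seeing the data. The log2 centre over flank ratio moved to -0.51 in FC and -0.88 in CON with TSSs at most 500 bp apart and to -0.37 and -0.68 without a shift. Less input it was -0.14 and -0.0072, and less IgG-IP it changed sign to 0.39 and 0.15. The difference between sides in CON became 0.55 as a ratio to input. The median log2 FC over CON moved to 0.12 in regions of 2 kb either side and to 0.12 less IgG-IP, and it changed sign to -0.18 less input and to -0.034 less the GC step. Pairs at least 1.5-fold higher in FC were 22 in regions of 2 kb either side, 13 less input, 67 less IgG-IP, 1 less the GC step and 1 with a score of at least 20. Pairs at least 1.5-fold higher in CON were 3 in regions of 2 kb either side, 86 less input, 18 less IgG-IP, 2 less the GC step and 3 with all deposited reads. In regions of 2 kb either side 6.77% of all protein-coding TSS regions were higher in FC and 2.80% in CON, less input 8.32% and 11.3%, and less IgG-IP 10.8% and 3.8%. At the lower fold tried there were 32 and 12 pairs (4.06% and 1.52%), against 11.4% and 4.13% of all protein-coding TSS regions, and at a fold of 2 there was 1 in each direction, against 1.03% and 0.472%. Why these values moved was not tested. No paired analysis was possible because each group had 1 library.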
